A study of Mus musculus with 38 samples.

Results

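The enzymes that turn glucose into pyruvate and then oxidise it in mitochondria are described here through 38 genes, out of 48709 genes counted in the mouse hippocampus. They are 14 genes of glycolysis, the 2 main lactate dehydrogenase genes, 4 genes of the pyruvate dehydrogenase complex, 15 genes of the citric acid cycle and 3 genes of the malate-aspartate shuttle. The genes were listed by name for their place in the pathway, with earlier results of these data known. Each was found by its Ensembl identifier. All 38 had reads in every library. Their comparison is with 72 nuclear genes for complexes I, III, IV and V of oxidative phosphorylation, of which 66 were lower and 6 higher in 6-month-old transgenic mice on placebo chow, none past the adjusted test. Succinate dehydrogenase, which is both a citric acid cycle enzyme and complex II, was counted with the 38 genes only.

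APPPS1ΔE9 mice, named APPdelta9 in the sample labels, carry transgenes for a mutant amyloid precursor protein and for a presenilin that lacks an exon. In this well-known line the prion protein promoter drives both transgenes, so the model rests on overexpression. Transgenic mice and wild-type (WT) littermates on a C57BL/6 background were fed chow with 2 g anle138b per kg, a small molecule that modulates protein aggregates, or placebo chow without it. Chow was given for 4 months and hippocampal RNA was taken from 1 mouse per library. At 6 months of age there were 4 mice in each of the 4 groups, WT on placebo, APPPS1ΔE9 on placebo, WT on anle138b and APPPS1ΔE9 on anle138b. At 10 months of age the same groups held 5, 5, 5 and 7 mice, and in these the chow had been started after plaque deposition began.

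Glycolysis spends ATP in its preparatory steps, from hexokinase to triose phosphate isomerase, and regains more in the pay-off steps that end with pyruvate kinase. Pyruvate is then reduced to lactate by lactate dehydrogenase or enters mitochondria, where the pyruvate dehydrogenase complex makes acetyl-CoA. The citric acid cycle oxidises acetyl-CoA and passes the electrons, as NADH or through succinate dehydrogenase, to the respiratory chain. Glucose is the main fuel of the adult brain, and neurons depend on the malate-aspartate shuttle to bring the electrons of cytosolic NADH into mitochondria.

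Promoter sequences from RefSeq (build GRCm38.p6) were matched for 36 of the 38 genes, and Sdhc and Idh3a were not. They are shown for 3 genes that lay at the ends of the 6-month genotype comparison described below. Hk2, for the inducible hexokinase, was the member with the smallest p among those higher in transgenic mice, and Mdh1 and Sdhd were among the lower ones. Each line gives the 250 bases before a RefSeq start of the gene, 5′ to 3′ on the minus strand, at chr6:82774455-82774704 for Hk2, chr11:21571935-21572184 for Mdh1 and chr9:50603850-50604099 for Sdhd. For Mdh1 this window lies within the gene as GENCODE M21 annotates it, whose end is at 21572367. Capitals mark matches, on either strand, to ACGTG, the core of the hypoxia response element, or to CATGCGC, part of the site of the factor NRF1.
Hk2: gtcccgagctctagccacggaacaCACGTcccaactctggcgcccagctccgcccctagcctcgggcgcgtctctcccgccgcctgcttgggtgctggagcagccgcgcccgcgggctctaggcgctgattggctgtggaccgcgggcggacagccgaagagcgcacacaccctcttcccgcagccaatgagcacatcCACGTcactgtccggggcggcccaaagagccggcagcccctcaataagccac
Mdh1: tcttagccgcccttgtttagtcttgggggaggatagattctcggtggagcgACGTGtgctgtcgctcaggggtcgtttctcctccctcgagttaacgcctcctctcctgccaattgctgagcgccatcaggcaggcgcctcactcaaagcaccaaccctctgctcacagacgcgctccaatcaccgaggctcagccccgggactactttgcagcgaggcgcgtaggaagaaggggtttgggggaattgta
Sdhd: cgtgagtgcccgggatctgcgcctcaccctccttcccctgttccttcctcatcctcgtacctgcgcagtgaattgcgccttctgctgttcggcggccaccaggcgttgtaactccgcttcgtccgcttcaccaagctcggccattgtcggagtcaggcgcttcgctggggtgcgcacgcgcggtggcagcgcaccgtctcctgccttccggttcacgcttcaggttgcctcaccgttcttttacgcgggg
Hk2 held 2 matches to the hypoxia core, Mdh1 held 1, and Sdhd held none of either motif in this window. Over the genes with a promoter in the table, ACGTG stood in at least 1 window of 12 of 36 members (33.3%), 12 of 61 oxidative phosphorylation genes (19.7%) and 4998 of 27025 genes (18.5%). Within the members it was found for 7 of 16 glycolysis and lactate dehydrogenase genes, Aldoa, Hk2, Ldha, Pfkm, Pgam1, Pgk1 and Pkm, and for 5 of the other 20. CATGCGC was found for 3 of 36 members (8.33%), 9 of 61 oxidative phosphorylation genes (14.8%) and 995 of 27025 genes (3.68%). A gene with several starts has several windows and so more chances of a match, and a match is a description of the letters only.

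Total counts were between 15847985 and 31895808 per mouse, and the members took between 0.935% and 1.16% of them. App, which counts the transgene too, was at 3235 to 4316 CPM (read counts scaled to the normalised library size) in APPPS1ΔE9 and 1516 to 1806 in WT mice, without overlap, so every library matched its genotype. This includes the 4 placebo-treated WT mice of 6 months, for which the title gives WT and a second label gives the transgenic line. Markers of hippocampal neurons (Prox1, Wfs1, Fibcd1, Spink8) summed to 346 to 589 CPM and were present in each mouse. All mice are described as male, yet 12 of 38 libraries had Xist over 100 CPM and no Y-linked expression. At 6 months these were 3 of 4 placebo-treated and 2 of 4 anle138b-treated WT mice, against 0 of 4 APPPS1ΔE9 mice on either chow. At 10 months they were 3 of 5 WT mice on each chow, against 0 of 5 placebo-treated and 1 of 7 anle138b-treated APPPS1ΔE9 mice. The sequencing lane named in the labels also goes with the groups, since the 6-month placebo WT libraries were all on lane 4, the placebo APPPS1ΔE9 libraries on lane 5 and the anle138b-treated APPPS1ΔE9 libraries on lane 6. At 10 months the WT libraries were on lanes 3 and 4 and the APPPS1ΔE9 libraries on lanes 5 and 6. Lane and group cannot be told apart in comparisons of these 6-month groups, nor lane and genotype at 10 months.

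Levels of different genes were compared as CPM per kilobase of exon, averaged over all 38 mice. Aldolase A, Aldoa, was the highest at 467.5 CPM per kilobase, with a range over mice of 375.3 to 552.9, followed by Mdh1, the cytosolic malate dehydrogenase, at 265.1 and the neuronal enolase Eno2 at 217.6. At the other end were Hk2 at 1.41 and Suclg2, the subunit of the GTP-forming succinyl-CoA synthetase, at 1.86. Of the 15 citric acid cycle genes Sdha, the catalytic subunit of succinate dehydrogenase, was the highest at 113.1.

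**Figure D1:**
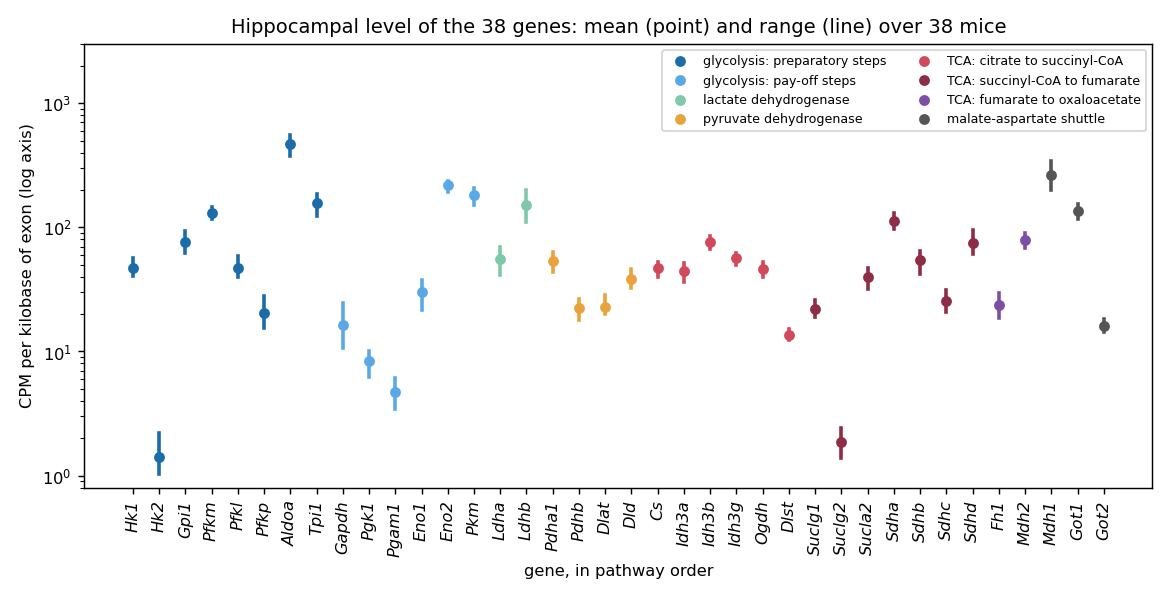
Levels of the 38 genes in CPM per kilobase of exon on a log axis, in pathway order. Points are means and lines are the lowest to highest of 38 mice, with colours for the role, from 467.5 for Aldoa to 1.41 for Hk2, while Gapdh, Pgk1 and Pgam1 stand below the other pay-off genes.

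Isozymes of the same step differed in level. Hk1, the constitutive brain hexokinase, was at 47.2 CPM per kilobase (40.4 to 56.4) and Hk2 at 1.41 (1.03 to 2.19). Of the phosphofructokinases, the committing step of glycolysis, Pfkm was at 130.7 (117.2 to 145.8) per kilobase. Pfkl was at 47.0 (39.6 to 58.9) and Pfkp at 20.5 (15.4 to 28.2), so the ranges per kilobase did not overlap. The separation depends on the length of all annotated exons, 3340 bases for Pfkm, 6675 for Pfkl and 13401 for Pfkp. In CPM, Pfkl (264.1 to 393.2) and Pfkp (206.5 to 378.2) overlapped. Eno2 was at 217.6 (192.8 to 237.9) and the ubiquitous Eno1 at 30.1 (21.5 to 37.5). Ldhb, the form that favours pyruvate from lactate, was at 152.2 (110.5 to 200.7) and Ldha at 55.2 (41.7 to 69.2). In each of these sets the same isozyme led per kilobase in all 38 mice. In CPM the ranges of Ldha (138 to 229) and Ldhb (173.5 to 315.1) overlapped.

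Gapdh, Pgk1 and Pgam1, which act on the 3-carbon intermediates, were recorded at only 16.4, 8.41 and 4.67 CPM per kilobase. These genes have many near-identical processed copies in the mouse genome, and reads that fit several places are handled by the mapping and counting, so their levels are uncertain. Counted copies took few reads, for example Gapdh-ps14 with 807 reads over all libraries against 62636 for Gapdh and Pgam1-ps1 with 303 against 8573. The part of such copies in the low levels was not tested. Eno1b, another near copy, had 912 reads against 150387 for Eno1.

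The first question was whether the fuel-supplying enzymes fall with oxidative phosphorylation in 6-month-old APPPS1ΔE9 mice on placebo chow. None of the 38 genes passed an adjusted p of 0.1 (edgeR's quasi-likelihood test with Benjamini-Hochberg adjustment over 16774 genes), where 12 genes (0.0715%) did. The median log2 fold change of the members, APPPS1ΔE9 over WT, was -0.03, with 17 genes higher and 21 lower, and over all genes tested it was 0.00. At an unadjusted p under 0.05 there were 9 members, against 11.1% of all genes, with 6 lower (background 5.86%) and 3 higher (background 5.22%). In 5 members every APPPS1ΔE9 mouse was below every WT mouse (background 4.51%) and in 1 member every one was above (background 1.87%).

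The direction differed by step. Of the 8 preparatory genes of glycolysis 7 were higher, with a median of 0.08, and the 3 higher members past an unadjusted p of 0.05 were all from this group. The 6 pay-off genes were split, 3 higher and 3 lower, with a median of -0.04. Both lactate dehydrogenase genes were lower (median -0.13), as were 3 of the 4 pyruvate dehydrogenase genes (median -0.10). In the citric acid cycle, the 6 genes from citrate synthase to the oxoglutarate dehydrogenase complex had a median of 0.00, while all 7 genes from succinyl-CoA to fumarate were lower (median -0.13). The 4 succinate dehydrogenase subunits, which also belong to the respiratory chain, had a median of -0.125. The median of the 7 genes from succinyl-CoA to fumarate was -0.07 without APPPS1ΔE9 mouse 2, -0.08 without WT mouse 2 and -0.075 with an offset for length and GC content. That of the preparatory genes was 0.05 without APPPS1ΔE9 mouse 2, 0.055 with the offset and 0.04 with choroid plexus markers in the model, and 0.14 and 0.13 with Y-linked expression and oligodendrocyte markers.

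**Figure D2:**
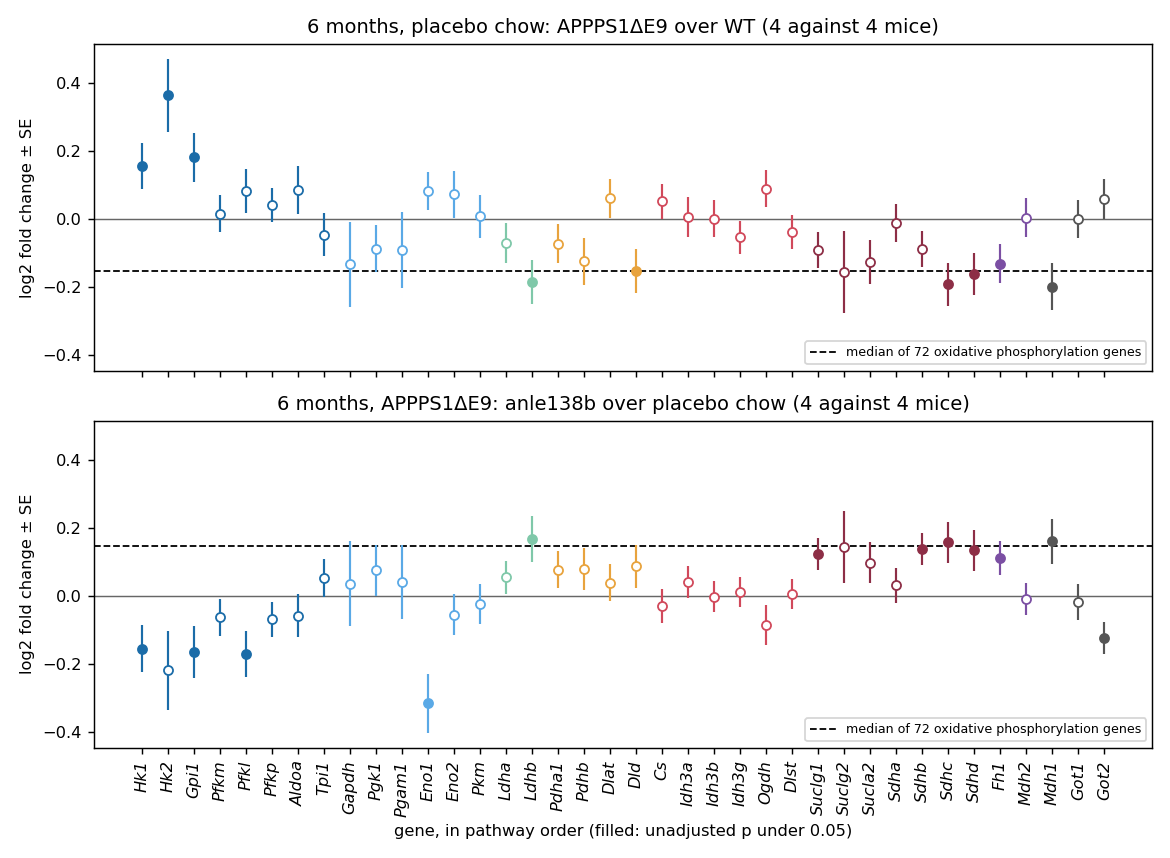
Log2 fold changes (points, with SE as lines) of the 38 genes at 6 months, for APPPS1ΔE9 over WT on placebo chow (upper panel) and anle138b over placebo chow in APPPS1ΔE9 mice (lower panel), 4 against 4 mice. Filled points have an unadjusted p under 0.05, and the dashed line is the median of 72 oxidative phosphorylation genes, -0.15 above and 0.15 below. Both panels use the same 4 placebo-treated APPPS1ΔE9 mice.

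Hexokinases trap glucose in the cell as glucose 6-phosphate. Gene positions are given on GRCm38 with the GENCODE M21 annotation, and reads were counted over exons. Hk2 (ENSMUSG00000000628, chr6:82725025-82774454, minus strand) was at 6.30, 7.54, 6.92 and 7.52 CPM in the WT mice and at 7.76, 9.41, 9.31 and 9.595 in the APPPS1ΔE9 mice. All 4 transgenic mice were above all 4 WT mice, by a log2 fold change of 0.36 ± 0.11 (SE, n = 4 and 4; edgeR adjusted p = 0.349). At these levels Hk2 had few reads, with at least 131 per library. Hk1 (ENSMUSG00000037012, chr10:62268855-62379908, minus strand) was at 426.8, 382.3, 386.1 and 412.7 CPM in WT and 399.5, 474.7, 450.0 and 451.6 in APPPS1ΔE9 mice. The groups overlapped through transgenic mouse 1, and the log2 fold change was 0.16 ± 0.07 (edgeR adjusted p = 0.429).

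Gpi1 (ENSMUSG00000036427, chr7:34201330-34230336, minus strand) encodes glucose 6-phosphate isomerase, the next step. It was at 462.2, 418.8, 448.0 and 442.4 CPM in WT and 485.8, 569.8, 476.6 and 458.4 in APPPS1ΔE9 mice, a log2 fold change of 0.18 ± 0.07 (edgeR adjusted p = 0.409). The lowest transgenic value lay just under the highest WT value, so the groups overlapped. The phosphofructokinase genes had log2 fold changes of 0.02 ± 0.06 for Pfkm, 0.08 ± 0.07 for Pfkl and 0.04 ± 0.05 for Pfkp, and the enolases 0.08 ± 0.06 for Eno1 and 0.07 ± 0.07 for Eno2. None of these 5 reached an unadjusted p of 0.05 in edgeR.

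Ldhb (ENSMUSG00000030246, chr6:142490249-142507957, minus strand) was at 281.8, 293.4, 295.8 and 276.6 CPM in WT and 273.5, 219.6, 247.2 and 259.3 in APPPS1ΔE9 mice. The groups did not overlap, and the log2 fold change was -0.19 ± 0.07 (edgeR adjusted p = 0.386). Its partner Ldha stood at 200.7 ± 15.4 CPM in WT and 189.4 ± 5.27 in APPPS1ΔE9 mice (SD, n = 4 each), which overlapped. Dld (ENSMUSG00000020664, chr12:31331277-31351453, minus strand) encodes the dihydrolipoamide dehydrogenase that the pyruvate and oxoglutarate complexes share. It was at 149.7, 160.0, 152.5 and 168.7 CPM in WT and 141.8, 127.4, 139.1 and 154.1 in APPPS1ΔE9 mice, which overlapped at transgenic mouse 4 (log2 fold change -0.15 ± 0.06, edgeR adjusted p = 0.419).

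The lower members of the cycle included both membrane anchors of succinate dehydrogenase. Sdhc (ENSMUSG00000058076, chr1:171127165-171150603, minus strand) was at 92.4, 96.4, 96.4 and 101.7 CPM in WT and 90.5, 74.55, 86.5 and 84.3 in APPPS1ΔE9 mice (log2 fold change -0.19 ± 0.06, edgeR adjusted p = 0.36). Sdhd (ENSMUSG00000000171, chr9:50596357-50603812, minus strand) was at 105.8, 116.3, 104.6 and 111.3 CPM in WT and 101.8, 87.3, 98.6 and 100.7 in APPPS1ΔE9 mice (log2 fold change -0.16 ± 0.06, edgeR adjusted p = 0.397). In both genes all transgenic mice were below all WT mice. The catalytic subunits showed smaller differences, with a log2 fold change of -0.01 ± 0.06 for the flavoprotein Sdha and -0.09 ± 0.05 for the iron-sulphur subunit Sdhb.

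Mdh1 (ENSMUSG00000020321, chr11:21556787-21572367, minus strand), which carries reducing equivalents into the malate-aspartate shuttle, was the most abundant of the lower members. It was at 796.9, 871.5, 809.8 and 856.2 CPM in WT and 743.3, 646.2, 731.3 and 755.8 in APPPS1ΔE9 mice, again without overlap (log2 fold change -0.20 ± 0.07, edgeR adjusted p = 0.373). It was the only member that passed with DESeq2 in this comparison, at an adjusted p of 0.0924, where 139 of 16774 genes passed. Its partners in the shuttle, Got1 and Got2, had log2 fold changes of -0.00 ± 0.06 and 0.06 ± 0.06, and the mitochondrial Mdh2 of 0.00 ± 0.06. Fumarase, Fh1, was lower without overlap too, at 92.3 ± 4.35 CPM in WT and 83.5 ± 4.66 in APPPS1ΔE9 mice (SD, n = 4 each, edgeR adjusted p = 0.437).

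For each of the 6 genes whose groups did not overlap, the two-sided exact permutation test gave p = 0.0286, the smallest that 4 against 4 mice allow. These are 6 of 38 such tests. Groups that do not overlap always give this p, so it adds nothing to the separation already described. Over all genes, 4.51% were lower and 1.87% higher without overlap. APPPS1ΔE9 mouse 2 had the lowest value of its group in Sdhc, Mdh1, Ldhb, Sdhd, Dld and Fh1 and the highest in Hk1 and Gpi1. Without this mouse 4 members had an unadjusted p under 0.05, and the median of the members was -0.01. Without WT mouse 2 it was also 4 members, with a median of -0.03. The share of all genes under this p is not given here for either fit.

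**Figure D3:**
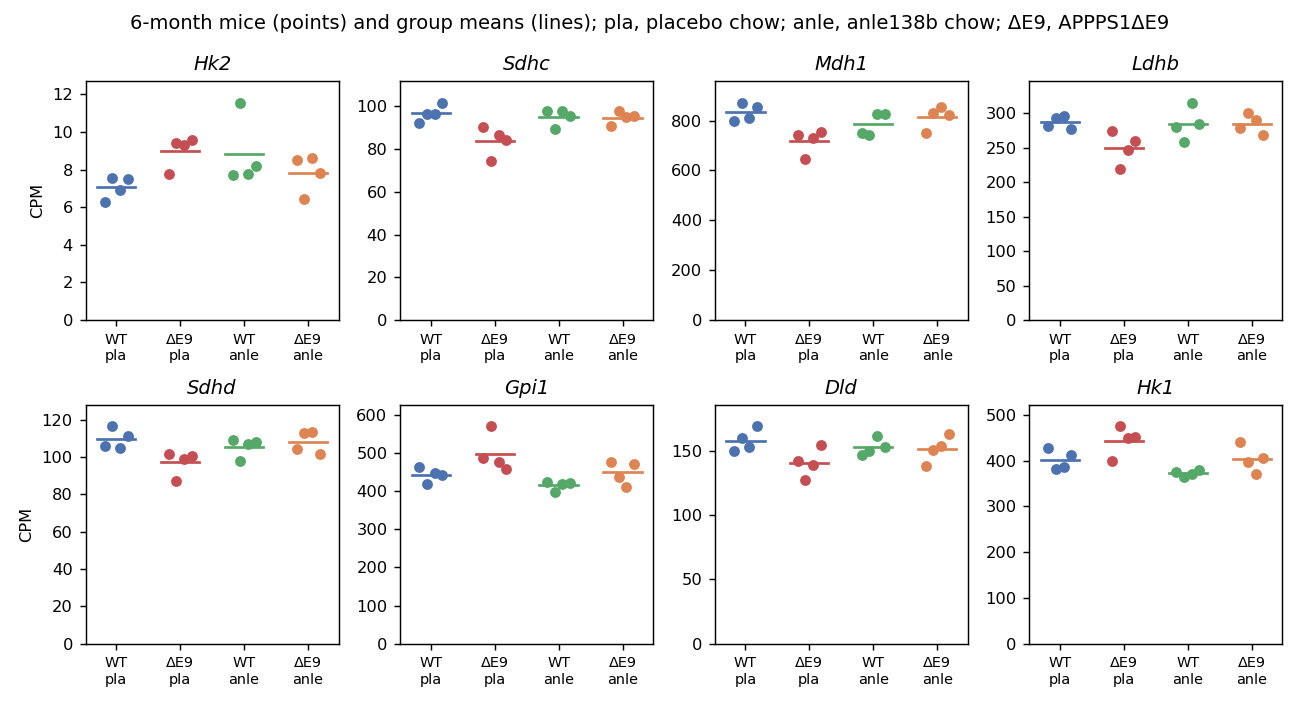
CPM of the 8 members with the smallest p in the 6-month placebo comparison, in each 6-month mouse (points), with group means (lines) and axes from 0. In Hk2 the placebo-treated APPPS1ΔE9 mice lie above the placebo-treated WT mice, and in Sdhc, Mdh1, Ldhb and Sdhd below them.

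The 72 oxidative phosphorylation genes showed a larger and more uniform difference in the same mice. Of these 35 (48.6%) were lower at an unadjusted p under 0.05, against 5.86% of all genes. In 33 all APPPS1ΔE9 mice were below all WT mice, against 4.51% of all genes. Of the 72 genes 66 were lower in APPPS1ΔE9 mice, and the median log2 fold change was -0.15. None passed the adjusted threshold, the smallest adjusted p being 0.294 for Uqcr10, a subunit of complex III, at 106.6 ± 4.86 CPM in WT and 88.1 ± 6.15 in APPPS1ΔE9 mice (SD, n = 4 each). With DESeq2 9 of them passed, where 139 of 16774 genes did. Atp5j of ATP synthase and Ndufs4 of complex I had log2 fold changes of -0.25 ± 0.06 and -0.28 ± 0.08. The complexes had similar shares of lower genes, 33 of 36 for complex I, 8 of 9 for complex III, 11 of 12 for complex IV and 14 of 15 for complex V. Against this, 15 of the 22 members of pyruvate dehydrogenase, cycle and shuttle were lower (median -0.06), and 6 of the 16 of glycolysis and lactate dehydrogenase (median 0.03). No test was made between these lists, which are described by their counts. Without APPPS1ΔE9 mouse 2 the oxidative phosphorylation median was -0.10.

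Several measures moved with this comparison. Astrocyte markers were lower for 4 of 5 genes (median log2 fold change -0.17), microglia markers higher for 4 of 5 (0.24) and neuron markers higher for 4 of 5 (0.05). The summed astrocyte markers were not lower, at 1670 to 2070 CPM in APPPS1ΔE9 and 1620 to 1880 in WT mice. The 4 oligodendrocyte markers were all lower in APPPS1ΔE9 mice, with sums of 2820 to 3270 CPM against 3050 to 3580 in WT. Choroid plexus markers (Ttr, Kl, Folr1, Kcnj13) were at 3860 CPM or more in 3 of 4 WT mice and 1 of 4 APPPS1ΔE9 mice, at 3860, 7490, 6220 and 176 in WT and 6480, 60, 692 and 178 in APPPS1ΔE9. With the oligodendrocyte sum in the model the medians were 0.002 for the members and -0.13 for oxidative phosphorylation, and with the choroid plexus sum they were -0.04 and -0.13. With Y-linked expression in the model they were 0.01 and -0.105. These fits left 3, 4 and 1 members under an unadjusted p of 0.05. Over all genes 5, 11 and 4 passed the adjusted test in them, against 12 in the main fit. Fold changes also went with gene length, with Spearman correlations of 0.64 over the members, 0.34 over the oxidative phosphorylation genes and 0.18 over all genes. With GC content they were 0.51, 0.26 and 0.14. Genes share the same libraries and are not independent. The median exon length was 3924.5 bases over the members, 1696.5 over the oxidative phosphorylation genes and 4168 over all genes. The part of length in the difference between the lists was not tested. An offset for length and GC content left 3 members under an unadjusted p of 0.05 and gave medians of -0.01 and -0.10. The share of all genes under this p is not given here for any of these fits. The members' median was thus just above 0 with the oligodendrocyte or the Y-linked term, while that of oxidative phosphorylation stayed below 0 in each of these fits.

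The fit with Y-linked expression rests on 1 WT mouse with such expression, mouse 3, and lane cannot be entered because it follows genotype. On lane 5 alone, with the 2 anle138b-treated WT mice sequenced there as the reference, the medians were -0.06 for the members and -0.13 for oxidative phosphorylation. In a bulk sample, fewer cells of a type and less RNA per cell cannot be told apart.

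Other genes of the pathway were listed for their function. Of 46 isozymes, carriers and regulators 42 could be tested, 16 higher and 26 lower with a median of -0.03, and 4 (9.52%), all lower, had an unadjusted p under 0.05, against 11.1% of all genes. The 3 with the smallest p were Bpgm, which makes 2,3-bisphosphoglycerate, Mpc2 of the mitochondrial pyruvate carrier, and Pdk4, a kinase that switches pyruvate dehydrogenase off. Bpgm was at 78.5 ± 1.35 CPM in WT and 67.8 ± 5.62 in APPPS1ΔE9 mice, Mpc2 at 56.3 ± 0.993 and 49.2 ± 3.11, and Pdk4 at 14.7 ± 1.94 and 11.6 ± 1.40 (SD, n = 4 each). Their log2 fold changes were -0.20 ± 0.06, -0.18 ± 0.06 and -0.33 ± 0.11, with adjusted p-values of 0.36, 0.36 and 0.371 in edgeR.

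When both genotypes had received anle138b, no member differed even at an unadjusted p of 0.05 (0 of 38, against 5.64% of genes), and none passed the adjusted test, which 0.047% of genes did. The median was 0.01 for the members, with 27 higher and 11 lower, and 0.03 for oxidative phosphorylation. Hk2 was at 8.81 ± 1.85 CPM in WT and 7.84 ± 1.01 in APPPS1ΔE9 mice. Mdh1 was at 787.2 ± 46.4 and 813.4 ± 45.1 CPM and Sdhc at 95.2 ± 4.0 and 94.8 ± 2.90 (SD, n = 4 each). In each of these 3 genes the groups overlapped.

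Within APPPS1ΔE9 mice, anle138b was compared with placebo chow, which uses the same 4 placebo-treated mice as above. The values are therefore given beside those of the genotype comparison, and their opposite sign is no separate finding. No member passed the adjusted test, as 0.0529% of genes did, and 12 had an unadjusted p under 0.05 (background 13.1%), 7 higher (5.50%) and 5 lower (7.63%). All 7 genes from succinyl-CoA to fumarate were higher on anle138b, 4 of them, Suclg1, Sdhb, Sdhc and Sdhd, at an unadjusted p under 0.05. Of the preparatory glycolysis genes 7 of 8 were lower, with Hk1, Gpi1 and Pfkl at an unadjusted p under 0.05. The median was 0.03 for the members and 0.15 for oxidative phosphorylation, where 68 of 72 genes were higher. The latter was 0.08 with the length and GC offset, 0.11 without placebo mouse 2 and 0.12 with choroid plexus markers in the model. The median from succinyl-CoA to fumarate was 0.09 in each of these fits, against 0.13 in the main fit. Choroid plexus markers were at 6650, 5980, 7370 and 158 CPM on anle138b and 6480, 60, 692 and 178 on placebo. In 4 members the anle138b mice were all above the placebo mice (3.38% of genes) and in 1 member all below (2.63% of genes). The 12 members became 4 without anle138b mouse 2 or mouse 3, 5 without placebo mouse 2 and 8 without placebo mouse 3. They became 2 with the choroid plexus sum or the length and GC offset in the model. No share of all genes is given here for these fits.

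The member with all anle138b mice below all placebo mice was Eno1. It was at 189.0, 197.5, 187.8 and 181.7 CPM on placebo and 139.3, 180.0, 164.3 and 131.4 on anle138b, a log2 fold change of -0.32 ± 0.09 (edgeR adjusted p = 0.292). With DESeq2 it passed at an adjusted p of 0.0734, where 204 of 17009 genes passed. Anle138b-treated WT mice had similarly low values, 116.5, 138.9, 115.6 and 172.5 CPM, against 190.7, 172.3, 171.4 and 185.5 in WT mice on placebo. There the groups overlapped by mouse 4, with a log2 fold change of -0.38 ± 0.13 (edgeR adjusted p = 1). Eno1 was thus lower on anle138b in both genotypes at this age, without passing the adjusted test in either. Eno2 did not follow, with a log2 fold change of -0.055 ± 0.061 in APPPS1ΔE9 mice.

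In WT mice of 6 months, 2 members had an unadjusted p under 0.05 (background 1.85%), Eno1 and Hk2, and the share of genes past the adjusted test was 0%. Hk2 was at 7.72, 11.6, 7.79 and 8.18 CPM on anle138b, above the placebo-treated WT mice in each case (log2 fold change 0.34 ± 0.145, edgeR adjusted p = 1). The value of mouse 2 stood far above the other 3. Hk1 went the other way without overlap, at 376.1, 363.2, 370.4 and 380.4 CPM on anle138b against 382.3 to 426.8 on placebo. Of all genes 0.394% were higher and 1.29% lower without overlap in this comparison. The median was -0.02 for the members and -0.04 for oxidative phosphorylation.

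The difference between the genotype effects on the 2 chows was tested as an interaction over all 16 mice of 6 months. No member and no other gene (0%) passed the adjusted test, while 6 members had an unadjusted p under 0.05 (background 7.99%). In Mdh1 (0.23 ± 0.08), Suclg1 (0.16 ± 0.06), Sdhc (0.17 ± 0.07), Sdhd (0.18 ± 0.08) and Sdhb (0.14 ± 0.06) the interaction was positive (edgeR, adjusted p = 0.618 for each). Of all genes 4.59% were positive at an unadjusted p under 0.05. In Hk2 it was negative (-0.55 ± 0.19, edgeR adjusted p = 0.618), and 3.40% of genes were negative at an unadjusted p under 0.05. The median was 0.05 over the members and 0.19 over the oxidative phosphorylation genes, of which 36 had an unadjusted p under 0.05. The 6 members became 3 without placebo-treated APPPS1ΔE9 mouse 2, placebo-treated WT mouse 2 or anle138b-treated APPPS1ΔE9 mouse 3. They became 4 without placebo-treated WT mouse 4, anle138b-treated WT mouse 2 or 3, or anle138b-treated APPPS1ΔE9 mouse 2. Shares of all genes in these fits are not given here.

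**Figure D4:**
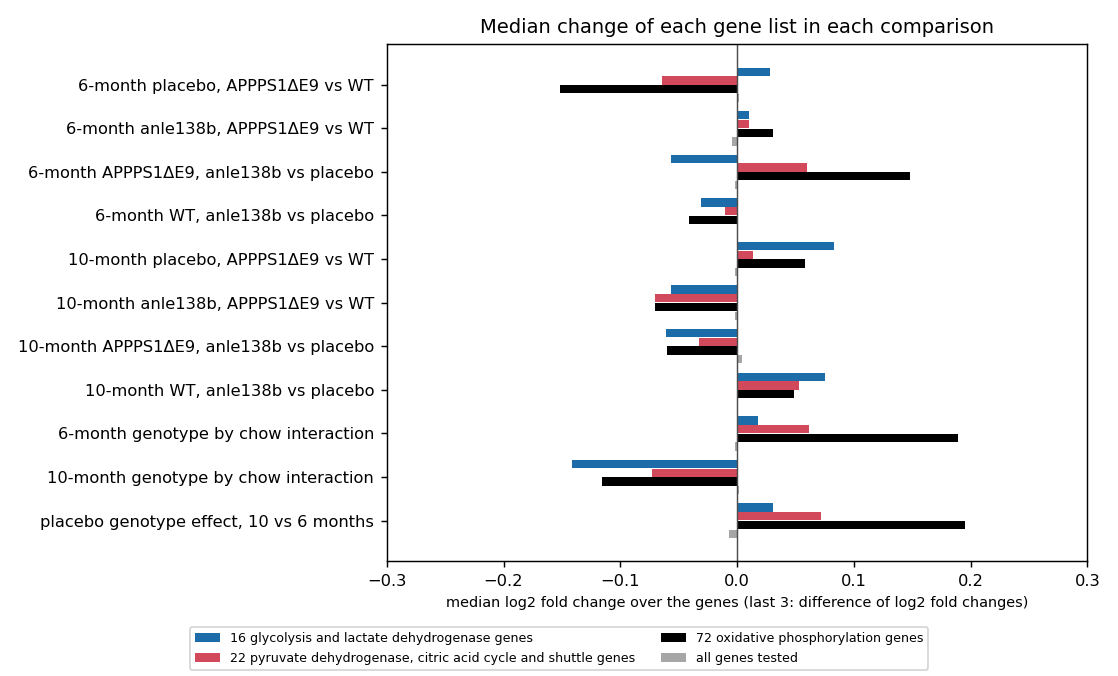
Median log2 fold change in each comparison (bars) over 16 glycolysis and lactate dehydrogenase genes, 22 pyruvate dehydrogenase, citric acid cycle and shuttle genes, 72 oxidative phosphorylation genes and all genes tested. The oxidative phosphorylation bar is at -0.15 for genotype on placebo at 6 months and at 0.15 for anle138b in APPPS1ΔE9 mice, and comparisons that share mice are not independent.

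At 10 months no genotype or chow comparison had a member past the adjusted test. For APPPS1ΔE9 against WT on placebo, 0 members had an unadjusted p under 0.05 (background 4.10%, and 0.324% at the adjusted threshold). The median was 0.04, with 29 of 38 higher. With Y-linked expression in the model this placebo median was 0.12, with 32 higher. Among placebo-treated mice with Y-linked expression only it was 0.13, with 35 higher. The WT mice left there were mice 2 and 5, with oligodendrocyte marker sums of 4240 and 2910 CPM. On anle138b the median was -0.06, with 31 of 38 lower, and 2 members had an unadjusted p under 0.05 (background 5.78%, and 0.723% adjusted). These were Dlat, the acetyltransferase of the pyruvate dehydrogenase complex, and Gapdh. Dlat was at 110.4 to 127.4 CPM (median 117.8) in 5 WT mice and 101.0 to 115.1 (median 109.2) in 7 APPPS1ΔE9 mice, a log2 fold change of -0.14 ± 0.05 (edgeR adjusted p = 0.693). Gapdh was at 60.05 to 72.3 CPM (median 64.6) in WT and 67.0 to 81.5 (median 71.4) in APPPS1ΔE9 mice, a log2 fold change of 0.14 ± 0.06 (edgeR adjusted p = 0.838). In both genes the groups overlapped. Among mice with Y-linked expression only, the median was -0.15 with 13 members under an unadjusted p of 0.05, a share not given here for all genes. In that subset 0 members passed the adjusted test, as 51 of 17667 genes did. Its only WT mice were mice 1 and 2, with oligodendrocyte marker sums of 1620 and 2130 CPM. With all mice but WT mouse 1 on anle138b, the median was -0.03. Anle138b against placebo gave a median of -0.04 in APPPS1ΔE9 mice (background 1.48% at unadjusted p under 0.05 and 0% adjusted) and 0.06 in WT mice (background 1.25% and 0%), with 0 members under an unadjusted p of 0.05 in either.

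The interaction of genotype and chow at 10 months had 1 member under an unadjusted p of 0.05 (background 2.30%, and 0% adjusted), Dlat at -0.22 ± 0.10 (edgeR adjusted p = 0.989). The placebo genotype effect was also compared between ages. Here 3 members, Sdhd (0.19 ± 0.08), Sdhc (0.17 ± 0.08) and Suclg1 (0.14 ± 0.07), had an unadjusted p under 0.05 (background 6.16%, and 0% adjusted), and their adjusted p-values in edgeR were 0.789 to 0.806. The 3 became 0 without 6-month APPPS1ΔE9 mouse 2, 6-month WT mouse 2, or 10-month WT mouse 2 or mouse 5, and 5 without 10-month WT mouse 4. They became 1 without 10-month WT mouse 1, 6-month WT mouse 4 or 10-month APPPS1ΔE9 mouse 2, 3 or 5, and 2 without 6-month APPPS1ΔE9 mouse 4 or 10-month APPPS1ΔE9 mouse 1. Shares of all genes without these mice are not given here. With all mice the medians were 0.05 for the members and 0.195 for oxidative phosphorylation.

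Within the groups, the members varied more at 10 than at 6 months. The mean log2 CPM over the 38 genes had an SD of 0.023 to 0.048 in the 6-month groups and 0.077 to 0.132 in the 10-month groups. In WT mice on placebo of 10 months it was 7.32, 7.15, 7.22, 7.43 and 7.21, and in WT mice on anle138b 7.44, 7.42, 7.19, 7.39 and 7.16. In APPPS1ΔE9 mice on placebo it was 7.40, 7.46, 7.25, 7.25 and 7.23, and in the 7 on anle138b it ran from 7.20 to 7.39. Each group thus held mice near 7.4 and mice near 7.2, and the SD within each group was larger than the differences between the 10-month group means.

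This spread went with the markers of oligodendrocytes, the myelin-forming cells (Mbp, Mog, Mag, Cnp). Their sum was 1640, 4240, 3430, 1670 and 2910 CPM in the WT placebo mice in the same order, and 1620, 2130, 3920, 1250 and 3530 CPM in the WT anle138b mice. It was 1580, 1850, 2960, 3030 and 3430 CPM in the placebo-treated APPPS1ΔE9 mice. Over all 22 mice no sum fell between 2130 and 2910 CPM. The 9 mice below this gap had member means of 7.32 to 7.46 and the 13 above it had 7.15 to 7.27, without overlap. The gap was chosen after both values were seen, so no test is given.

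The 9 mice came from every group, 2 of 5 on placebo and 3 of 5 on anle138b among WT, and 2 of 5 and 2 of 7 among APPPS1ΔE9 mice. In 10 members (26.3%) all 9 were above all 13, against 5.37% of 15036 genes over 1 CPM and 6 of the oxidative phosphorylation genes (8.33%). The gap was chosen with the members' means in view, so these shares only describe the split and show nothing further about the members. The 10 members were Pfkp, Tpi1, Pgk1, Pdha1, Pdhb, Idh3a, Idh3b, Sdha, Fh1 and Mdh1. Tpi1, triose phosphate isomerase, was at 418.1 to 489.4 against 337.9 to 389.7 CPM. Pfkp, the platelet form of phosphofructokinase, was at 282.2 to 378.2 against 206.5 to 278.7 CPM, a narrow gap. Mdh1 was at 633.2 to 707.8 against 516.5 to 611.8 CPM, Fh1 at 78.4 to 82.5 against 63.2 to 71.9, and Idh3a, the catalytic subunit of isocitrate dehydrogenase, at 231.3 to 263.1 against 182.7 to 206.2. Sdhc (67.9 to 80.1 and 69.4 to 81.9 CPM) and Ldhb (173.5 to 231.9 and 197.7 to 231.1) overlapped. Of the 5 genes lower without overlap in APPPS1ΔE9 mice at 6 months, Mdh1 and Fh1 thus separated the 9 from the 13 mice, while Sdhc, Sdhd and Ldhb did not.

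Choroid plexus markers were at 31.1 to 126 CPM in the 9 mice and 52.8 to 4280 in the 13. Neuron markers were at 5850 to 6950 CPM in the 9 mice and 5440 to 6380 in the 13, astrocyte markers at 1370 to 2380 and 1440 to 2490, and the hippocampal neuron markers at 346 to 422 and 408 to 589. The part of tissue make-up in the members' spread was not tested. With the oligodendrocyte sum in the model, the median of the members was 0.025 for APPPS1ΔE9 against WT on placebo, -0.02 on anle138b, -0.01 for anle138b against placebo in APPPS1ΔE9 and 0.02 in WT mice. With the choroid plexus sum in the model these medians were -0.015, -0.04, -0.03 and -0.04. The first had 24 of 38 members lower, against 29 higher without the term, and the last 29 lower, against 34 higher. At 6 months the oligodendrocyte sum ran from 2540 to 3580 CPM, without such a gap.

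**Figure D5:**
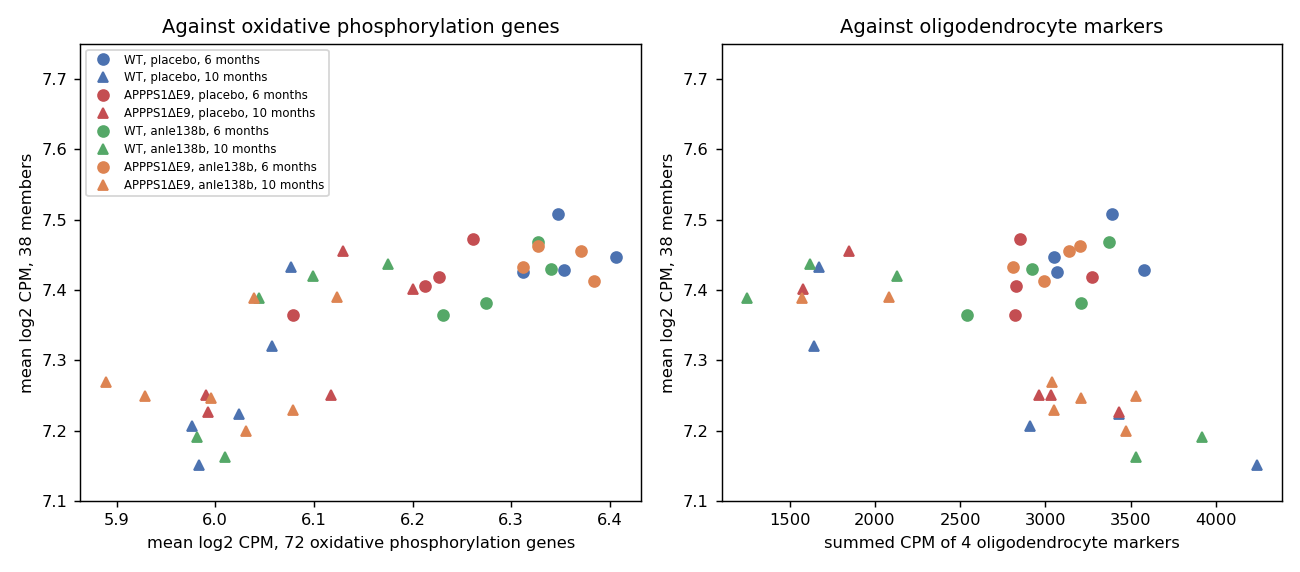
Mean log2 CPM of the 38 members in each mouse, against the mean of 72 oxidative phosphorylation genes (left) and against the summed CPM of 4 oligodendrocyte markers (right), with circles for 6 and triangles for 10 months. At 10 months the 9 mice with 1250 to 2130 CPM of oligodendrocyte markers lie at 7.32 to 7.46 and the other 13 at 7.15 to 7.27.

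Levels at 10 months were also set beside those at 6 months, without a test, since age, cohort and lane cannot be told apart. In WT mice on placebo 34 of 38 members were lower at 10 months, with a median log2 difference of -0.19, and 14 (36.8%) were lower without overlap. Over all genes 53.7% were lower and 10.5% were lower without overlap. The oxidative phosphorylation genes had a median of -0.37, with 69 of 72 lower. In APPPS1ΔE9 mice on placebo 32 members were lower, with a median of -0.12, and 1 (2.63%) was lower without overlap. Over all genes these shares were 50.2% and 2.05%. Oxidative phosphorylation had a median of -0.13 there. Of the members, pyruvate dehydrogenase, cycle and shuttle genes had the larger differences in WT mice (median -0.225, against -0.13 for glycolysis and lactate dehydrogenase). Choroid plexus markers were at 3860 CPM or more in 10 of 16 mice at 6 months and 1 of 22 at 10 months, and their part in these differences was not tested.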

How the data were processed

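RNA from the hippocampus of 38 mice was sequenced with poly(A)-selected libraries. The authors aligned reads to mm10 with STAR, counted them per gene with HTSeq and deposited whole-number counts, 1 table per mouse, without normalization. The annotation release and the strand setting are not given in the sources used here. The counted genes were matched by Ensembl identifier to GENCODE M21 (48349 of 48709), which also gave exon lengths.

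Genes were filtered (minimum count 10, minimum total 15) and tested with edgeR 4.0.16 in R 4.3.3 (TMM factors, robust quasi-likelihood fit, Benjamini-Hochberg adjustment over all genes tested, calls at an adjusted p of 0.1). CPM were TMM-normalised over the 38 libraries, and log2 CPM used a prior count of 2. Each comparison was fitted on its own groups, and interactions on all mice of the ages concerned. Single members were also compared by exact two-sided permutation. DESeq2 1.42.0, other size factors, no filter, covariates and leaving out each mouse were alternatives. The test was first tried on simulated data.

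Named members were those passing the adjusted test (none) and the 8 with the smallest p in the 6-month placebo genotype comparison, with fixed isozyme sets and the 3 smallest p of the other pathway and oxidative phosphorylation lists. Members named outside this rule were chosen after their values were seen. Members and lists were chosen with earlier results of these data known. Mice are separate animals. No library pair agreed within counting noise. Genes with near-identical copies are uncertain. The oligodendrocyte list is used without 1 marker, which is not reported here.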

Additional observations from a re-analysis of the deposited data

Results flagged for a closer look

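Of 72 groups and measures examined, 3 held a mouse far from the rest of its group, and chance alone places about 1 in 20 groups there. Hk2 of APPPS1ΔE9 mouse 1 on placebo at 6 months was the lowest of its group at 7.76 CPM, with the others at 9.31 to 9.595, a gap of 0.844 of the range. Hk2 of WT mouse 2 on anle138b at 6 months was the highest at 11.56 CPM, with the others at 7.72 to 8.18 (0.881 of the range). In the same mouse Gpi1 was the lowest at 397.4 CPM, with the others at 419.6 to 423.3 (0.857 of the range). No interaction passed the adjusted test for a member.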

How the results depend on the processing

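No single named gene changed direction in 160 recomputed values, all of them from the 6-month placebo genotype comparison. Single genes were not followed in this way in the other comparisons. Of 160 recomputed medians of the members, which have no test, 8 had the opposite sign. They were 0.012, 0.002 and 0.024 in place of -0.026 in the 6-month placebo genotype comparison, with Y-linked expression or oligodendrocyte markers in the model and among mice with Y-linked expression only. Among the latter mice the 6-month WT median was 0.011 in place of -0.024. With choroid plexus markers in the model, the 10-month medians were -0.015 in place of 0.038 for genotype on placebo and -0.039 in place of 0.056 for anle138b in WT mice. With DESeq2 1 member was called in the 6-month placebo genotype comparison, Mdh1 (log2 fold change -0.199, adjusted p 0.0924), and 1 in APPPS1ΔE9 mice on anle138b against placebo at 6 months. The restriction to Y-linked expression and the marker terms were chosen after seeing the data, and at 6 months on placebo the restriction rests on 1 WT mouse assumed to vary like the others. In WT mice on anle138b against placebo at 10 months the same restriction called 30 members, and 5550 of all 17203 genes, with a members' median of 0.248, where both anle138b mice had low and both placebo mice high oligodendrocyte sums. The cause was not tested.

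Counts over all genes moved more. The 12 genes called in the 6-month placebo comparison became 139 with DESeq2, 110 without the filter, 35 with all 4 groups and 205 without APPPS1ΔE9 placebo mouse 1. The 9 called for anle138b in APPPS1ΔE9 mice became 204, 120 and, without the same mouse, 317. With the replicate number as a block, 8 genes and 0 members were called in the 6-month placebo comparison, with a median of -0.026, and same-numbered mice did not deviate together. The 10-month placebo genotype median, 0.038 with all mice, was -0.006 without APPPS1ΔE9 placebo mouse 2 and -0.001 without WT placebo mouse 2. It was 0.116 with Y-linked expression in the model and 0.126 among mice with Y-linked expression only.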

Other observations

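Pituitary hormone markers (Prl, Gh) summed to 306 CPM in 6-month WT mouse 1 on anle138b and 436 CPM in 10-month WT mouse 1 on placebo, and to 21 CPM or less in the other mice. Choroid plexus markers reached 4280 CPM in 10-month APPPS1ΔE9 mouse 5 on anle138b, while the other 10-month mice were at 31.1 to 289 CPM.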
